A study of Ovis aries with 15 samples.

Results

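The subunits, assembly chaperones and activators of the proteasome were described in the ovine mammary gland from every feature whose symbol is PSM, a letter from A to G and a number, other than PSMB8 and PSMB9. This rule found 44 of the 24691 features in the deposited table. It used the symbols alone and no measured value, but the members were chosen with earlier results of these data known. PSMB8 and PSMB9 are given beside the members where a comparison needs them. PSMG2 and PSMG4, which assist the assembly of the core, were not analysed here.

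Needle biopsies came from 2-year-old Romney ewes in their first pregnancy, at day 135 ± 2.4 (SD) of gestation (late pregnancy) or day 15 ± 1.27 (SD) after lambing (lactation). RNA of several ewes was pooled for each of 9 late pregnancy and 6 lactation libraries, so the spread between pools is not that between ewes, and no value belongs to a single ewe. The study's methods describe the lactation biopsies as a further sampling of these ewes, so pools of both states may share animals. The sources used here do not say which pools do, and the tests treat all pools as independent. Per the labels a pool holds 3 ewes in late pregnancy but 2 in lactation, whereas the study's methods give 1 number for both states, and this was not settled. Each state was also divided by how the mothers of these ewes had been fed in early gestation, namely ad libitum (HM), maintenance (MM) or sub-maintenance (LM), with 3 late pregnancy and 2 lactation pools per feed group.

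The proteasome is the barrel-shaped protease that degrades ubiquitin-tagged proteins. Its core is built from rings of alpha subunits, which gate the entry, around rings of beta subunits, of which PSMB5, PSMB6 and PSMB7 carry the proteolytic sites. A regulatory cap, made of a base with ATPases and a lid, binds and unfolds the substrate. In cells exposed to interferon, and constitutively in many leukocytes, PSMB8, PSMB9 and PSMB10 take the places of PSMB5, PSMB6 and PSMB7 to form the immunoproteasome, which supplies peptides for antigen presentation. The activator PA28, made of PSME1 and PSME2, is induced with them. The mammary gland turns from growth to the secretion of large amounts of milk protein between the states compared here.

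Between 7597938 and 19823166 reads fell on genes in the late pregnancy libraries, and between 10352962 and 25679416 in those of lactation. Counts were scaled by TMM, a method that sets the bulk of genes equal between libraries, and are given as CPM, the reads of a gene relative to the scaled library. Of the 44 members, 42 passed the filter on low counts. The other two were PSMA8, the alternative alpha subunit of testis, with at most 8 reads in a library, and PSMB11, the beta subunit of thymus cortex, with at most 2. In whole biopsies a lower level may come from fewer cells of a type or from less RNA per cell, and these cannot be told apart.

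The genes of the standard proteasome differed little between the states, whereas the inducible catalytic subunit PSMB10 and the PA28 genes PSME1 and PSME2 were far lower in lactation. By edgeR's quasi-likelihood test 32 of the 42 members tested passed an adjusted p of 0.05, or 76.2%, beside 68.4% of the 13345 genes tested. Of these, 18 were higher in lactation (33.1% of all genes were) and 14 lower (35.2% of all genes were). The states did not overlap in 17 members, or 40.5%, beside 40.2% of all genes. A change of more than 2-fold was found in 3 members, PSMB10, PSME1 and PSME2, beside 22.1% of all genes, and each of these was lower in lactation. The median log2 change, lactation over late pregnancy, was 0.03 over the members and -0.03 over all genes.

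In the 31 standard subunits of core and cap the median size of the log2 change was 0.22, and over all genes tested it was 0.46. None of the 31 changed more than 2-fold, and their log2 changes ran from -0.51 for PSMA5 to 0.57 for PSMD11. The pools also varied little within a state, with a median coefficient of variation of 6.33% in late pregnancy and 7.48% in lactation over the members, against 12.3% and 15.8% over all genes. Neither the size of the changes nor this variation was compared with genes of similar abundance. Changes of this size depend on the scaling. With library size alone, where milk protein reads take their full share, the median of all genes moved by -1.91 and all 42 members were lower. With upper quartile scaling 9 members were higher and 21 lower, and with limma on the authors' quantile-normalized RPKM 5 were higher and 23 lower. Of all genes called, 97.3% were lower with library size alone, 63.7% with upper quartile scaling and 55.3% with limma, against 51.6% with TMM. The median log2 change of all genes was -0.18 with upper quartile scaling and -0.05 with limma. Under TMM, RLE, upper quartile, DESeq2 and limma alike, 5 members were called higher (PSMD11, PSMD12, PSMD5, PSMD6 and PSME3) and 13 lower (PSMA1, PSMA2, PSMA4, PSMA5, PSMA6, PSMB10, PSMB3, PSMB7, PSMD4, PSME1, PSME2, PSMF1 and PSMG3). Directions below are relative to the bulk of genes. Counts by class and by list below, where from TMM, stand beside 33.1% of all genes called higher and 35.2% called lower.

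**Figure D1:**
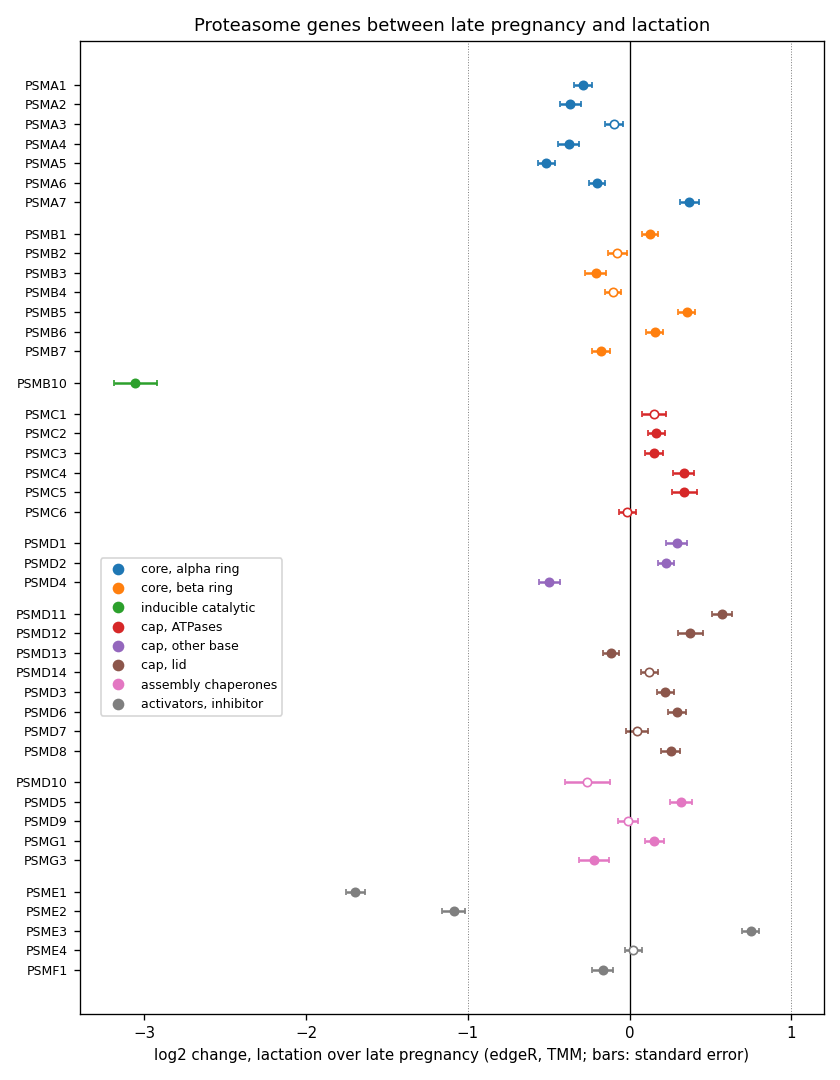
The log2 change (lactation over late pregnancy, TMM scaling) of the 42 members tested is drawn with its standard error by class, filled where the adjusted p was under 0.05 and open where it was not. PSMB10, PSME1 and PSME2 lie beyond the dotted line of a 2-fold lower level, and the other 39 lie within 2-fold. With library size alone all 42 would lie below 0.

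In the alpha ring, 5 of the 7 standard subunits fell in lactation, PSMA7 rose and PSMA3 did not pass the test, and the median log2 change was -0.29. With upper quartile scaling 6 fell and 1 rose, and with limma 6 fell and none rose. PSMA5 ran from 52.2 to 58.1 CPM with a median of 55.1 in late pregnancy, and from 34.8 to 43.0 with a median of 38.6 in lactation. Every lactation pool was thus below every late pregnancy pool, with a log2 change of -0.51 ± 0.053 (SE) and an adjusted p of 3.7e-08 by edgeR. PSMA4 (-0.38), PSMA2 (-0.37) and PSMA1 (-0.29) also had no overlap between the states, and PSMA6 (-0.20) did. PSMA7 went the other way, from 53.7 to 67.7 CPM with a median of 59.6 in late pregnancy to 70.3 to 83.2 with a median of 80.5 in lactation. Its states did not overlap either, at a log2 change of 0.37 ± 0.058 (SE, adjusted p of 1.2e-05 by edgeR), which was not called with limma and was negative with library size alone.

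In the beta ring, 3 of the 7 standard subunits rose, 2 fell and 2 did not pass, around a median of -0.08. With upper quartile scaling 1 rose and 4 fell, and with limma none rose and 6 fell. PSMB5, the chymotrypsin-like subunit, had 51.8 to 63.3 CPM with a median of 56.9 in late pregnancy and 66.8 to 78.5 with a median of 72.7 in lactation. It was the only beta subunit of the 7 whose states did not overlap, with a log2 change of 0.35 ± 0.053 (SE) and an adjusted p of 7.2e-06 by edgeR, and it was not called with limma. PSMB6, the caspase-like subunit, rose by 0.15 and PSMB1 by 0.12, although limma gave -0.11 and -0.14. PSMB7, the trypsin-like subunit, and PSMB3 fell with log2 changes of -0.18 and -0.21, and did so under every scaling tried. PSMB2 and PSMB4 had log2 changes of -0.08 and -0.10 that did not pass the test.

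PSMB10, the interferon-inducible subunit that replaces PSMB7, had the largest change of the members. It lies on chromosome 14 from 34756854 to 34759416, in the coordinates of the deposited table. In late pregnancy it ran from 74.8 to 99.7 CPM with a median of 92.6, and in lactation from 7.21 to 14.8 with a median of 10.1. The highest lactation pool was far below the lowest late pregnancy pool. The fitted level was 8.31 times as high in late pregnancy as in lactation, with a log2 change of -3.06 ± 0.134 (SE) and an adjusted p of 9.8e-14 by edgeR. Only 149 of the 13345 genes tested had a lower log2 change. The other inducible subunits, which are no members here, moved the same way. PSMB8 went from 88.2 ± 5.92 CPM (SD, n = 9) to 31.1 ± 6.10 (SD, n = 6), a log2 change of -1.51 with an adjusted p of 9.7e-12 by edgeR, and PSMB9 from 36.7 ± 5.05 to 7.84 ± 0.872, a log2 change of -2.22 with an adjusted p of 5.5e-13 by edgeR. In neither did the states overlap.

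**Figure D2:**
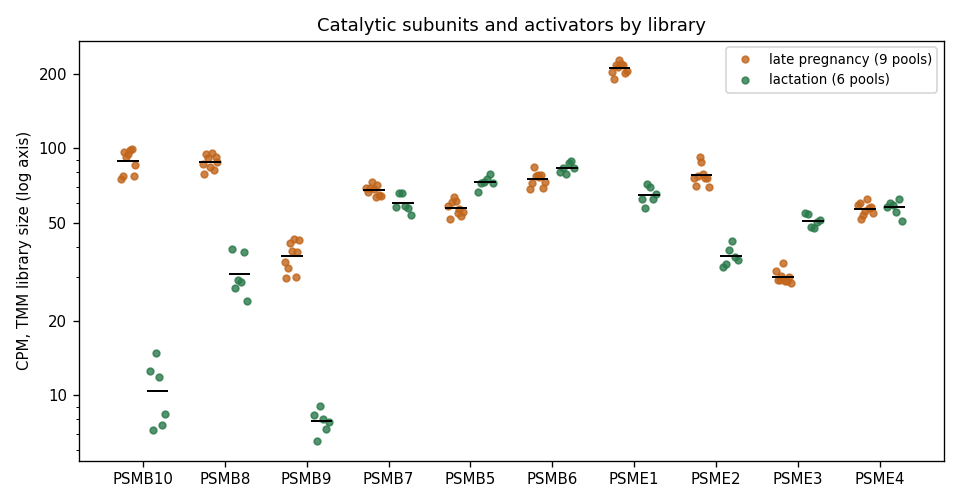
CPM on a log axis of the 3 inducible catalytic subunits, the 3 standard ones they replace, and the activators is drawn for each library, with the mean of each state as a bar. PSMB10, PSMB8, PSMB9, PSME1 and PSME2 were lower in every lactation pool than in any late pregnancy pool, and PSME3 was higher in every one, relative to the bulk of genes. With library size alone PSME3 was lower in lactation.

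An inducible subunit occupies the same position in the core as its standard counterpart, and the 2 were compared as a ratio. A ratio of genes within a library does not depend on the scaling between libraries. RPKM (reads scaled by exon length and by the total of reads on genes) were used for the ratios, since levels of different genes can only be compared per length. The share of PSMB10 in the summed RPKM of PSMB10 and PSMB7 was 57.1% ± 2.73 (SD, n = 9) in late pregnancy and 14.9% ± 3.53 (SD, n = 6) in lactation. PSMB8 made up 72.8% ± 1.63 of PSMB8 and PSMB5 in late pregnancy, and 42.2% ± 5.01 in lactation. PSMB9 made up 38.4% ± 3.74 of PSMB9 and PSMB6, and 10.8% ± 1.38 in lactation. At each of the 3 positions the inducible transcript thus had a smaller share in lactation, without overlap of the pools, and at the PSMB10 and PSMB8 positions it was the more abundant of the pair on average in late pregnancy and the less abundant in lactation. The log2 ratios fell by 2.96, 1.88 and 2.38 for PSMB10, PSMB8 and PSMB9. Each gave p = 0.0004, the smallest possible, in a two-sided exact permutation test over the libraries, and 0.00049 after adjustment over the 11 ratios tested in all.

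**Figure D3:**
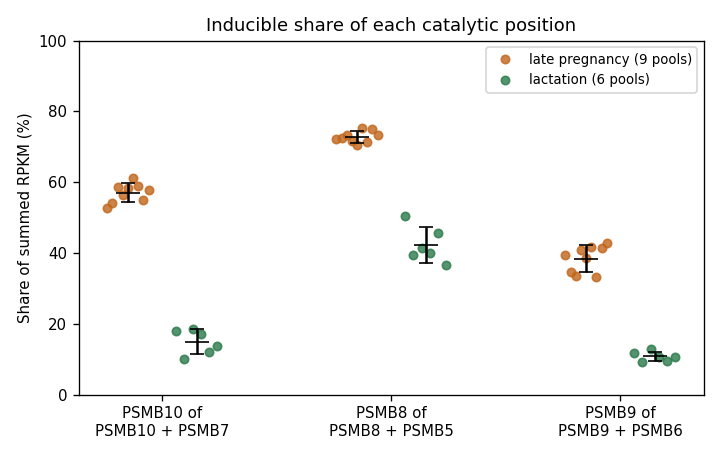
The share of the inducible subunit in the summed RPKM (%) of the inducible and standard subunits at each catalytic position is drawn for each library, with mean and SD. The 9 late pregnancy pools lie between 52.6% and 61.3% for PSMB10, and the 6 lactation pools between 10.1% and 18.6%.

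Of the activators, PSME1 and PSME2 encode the subunits of PA28 and are neighbours on chromosome 7, from 20632346 to 20635145 and from 20623649 to 20627493, with 4852 bases between them. PSME1 ran from 191 to 228 CPM with a median of 213 in late pregnancy and from 57.5 to 71.6 with a median of 63.8 in lactation. PSME2 ran from 69.6 to 92.0 CPM with a median of 76.0 and from 33.2 to 42.0 with a median of 35.8. For both genes the states were far apart, with log2 changes of -1.70 ± 0.059 (SE, adjusted p of 3.5e-15 by edgeR) and -1.09 ± 0.072 (SE, adjusted p of 5.4e-11 by edgeR). EMC9 overlaps PSME1 in the annotation, and the library kit does not mark strand, but EMC9 had a mean of 7.40 CPM in late pregnancy and 11.5 in lactation, against 211 for PSME1 in late pregnancy. Reads across exon junctions gave a PSME1 change of -1.76.

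PSME3, the nuclear activator PA28 gamma, rose as its relatives fell. It ran from 28.5 to 34.5 CPM with a median of 29.3 in late pregnancy, against 47.6 to 54.7 with a median of 50.8 in lactation. The states did not overlap, and the log2 change was 0.75 ± 0.053 (SE, adjusted p of 1.6e-10 by edgeR), the largest rise of the members, positive with every scaling other than library size alone. PSME4, which encodes the activator PA200, had 51.8 to 62.3 CPM in late pregnancy and 51.0 to 62.5 in lactation and did not pass the test (log2 change of 0.02 ± 0.054 SE). PSMF1, the regulator PI31, fell with a log2 change of -0.17 and overlapping pools (adjusted p of 0.031 by edgeR). Within libraries, the mean log2 RPKM of PSME1 and PSME2 less that of the 7 alpha subunits went from 1.03 ± 0.050 (SD, n = 9) to -0.16 ± 0.123 (SD, n = 6), and that of PSME3 went from -1.28 ± 0.076 to -0.32 ± 0.093. The difference for the PA28 pair was -1.19 and that for PSME3 was 0.97, each with an adjusted p of 0.00049 in the exact permutation test.

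Markers of leukocytes, cells in which the immunoproteasome is constitutive, moved in the same direction. Of the 16 leukocyte genes listed, 12 were tested, of which 9 fell and 2 rose, with a median log2 change of -1.28. Their summed level over all 16 ran from 122 to 161 CPM in late pregnancy and from 78.2 to 95.9 in lactation, and no gene of the list was at 0 in all libraries. PTPRC, the pan-leukocyte antigen CD45, fell with a log2 change of -1.37 and the T cell gene CD3E with -1.63, while CD14, a receptor of macrophages, rose by 2.13. The part of these cells in the change of the inducible genes was not tested.

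The other genes of antigen processing were lower too: of the 11 listed, PSMB8 and PSMB9 included, 9 fell and 2 rose, with a median of -0.81. IRF1, an interferon-responsive transcription factor that activates immunoproteasome genes, fell most, from 33.4 ± 4.41 to 6.02 ± 1.67 CPM (log2 change of -2.41, adjusted p of 4.1e-12 by edgeR). The peptide transporter genes TAP1 (-0.92) and TAP2 (-1.22), and TAPBP (-0.81) also fell, here named after their values were seen. ERAP1, a peptide-trimming enzyme, rose by 0.40 and B2M, the light chain of class I molecules, by 0.32. With library size alone ERAP1 and B2M were lower too, and limma gave -2.37 for B2M, so its direction is not settled.

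In the regulatory cap, 11 of 17 subunits rose in lactation, 2 fell and 4 did not pass, with a median log2 change of 0.22. Of all genes, 33.1% were called higher and 35.2% lower. With upper quartile scaling 5 rose and 3 fell, and with limma 3 rose and 5 fell. With library size alone all 17 fell, where 97.3% of all calls were lower. The base ATPases, which unfold the substrate, had 4 of 6 higher and none lower, with PSMC5 (0.34 ± 0.077 SE) and PSMC4 (0.33 ± 0.066 SE) at the top. PSMC4 ran from 31.3 to 41.6 CPM with a median of 35.2 in late pregnancy and from 42.2 to 51.8 with a median of 45.5 in lactation, without overlap (adjusted p of 0.00015 by edgeR). PSMC5 overlapped between the states. With limma none of the 6 ATPases was higher and 2 were lower.

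Of the other base subunits, the scaffolds PSMD1 and PSMD2 rose by 0.29 and 0.23, although neither was called higher with upper quartile scaling or limma. HTR2B overlaps PSMD1 in the annotation and had a mean of 0.242 CPM in late pregnancy. The ubiquitin receptor PSMD4 fell under every scaling. PSMD4 ran from 62.3 to 85.0 CPM with a median of 71.8 in late pregnancy and from 46.6 to 55.5 with a median of 51.2 in lactation. Its states were separate, with a log2 change of -0.50 ± 0.066 (SE) and an adjusted p of 1.6e-06 by edgeR. The gene of the other ubiquitin receptor, ADRM1, had 39.0 ± 4.02 and 41.5 ± 4.34 CPM and did not pass the test.

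The lid had 5 of 8 genes higher, 1 lower and 2 that did not pass, with a median of 0.24, and with limma 3 were higher and 2 lower. PSMD11 ran from 20.5 to 26.4 CPM with a median of 22.6 in late pregnancy and from 32.6 to 37.4 with a median of 33.5 in lactation. The pools did not overlap, at a log2 change of 0.57 ± 0.061 (SE, adjusted p of 6.4e-08 by edgeR), which was positive and called with every scaling other than library size alone. PSMD12 (0.37), PSMD6 (0.29), PSMD8 (0.25) and PSMD3 (0.22) also rose, of which only PSMD12 and PSMD6 were called with limma too. PSMD14, the deubiquitinase of the lid, had a log2 change of 0.12 and PSMD7 of 0.04, and neither passed. PSMD13 fell by 0.12 on the log2 scale, but only 73.6% of its exon reads were placed uniquely, and on unique reads its change was -0.04 and was not called.

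The assembly chaperones did not move together. PSMD5, a chaperone of the cap base, rose by 0.32 (adjusted p of 0.00029 by edgeR), from 27.8 to 35.4 CPM with a median of 32.7 to 36.6 to 45.1 with a median of 39.5, without overlap. PSMG1, a chaperone of the core, rose by 0.15 and PSMG3 fell with -0.22, both with overlapping pools, and limma gave -0.08 for PSMG1. PSMD9 (-0.01) and PSMD10 (-0.26) did not pass. PSMD10 was the least abundant member tested, at 3.16 to 6.85 CPM in lactation, and only 66.0% of its exon reads were placed uniquely. Its feature is annotated with 1 exon of 874 bases and gave no value on reads across exon junctions. Its level therefore rests on that annotation. POMP, the chaperone that matures the core, had 66.9 ± 2.29 and 66.9 ± 4.5 CPM and did not pass the test.

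Measured within each library, where no scaling enters, the cap and the beta ring rose relative to the alpha ring. The mean log2 RPKM of the 6 ATPases less that of the 7 alpha subunits was -0.56 ± 0.062 (SD, n = 9) in late pregnancy and -0.16 ± 0.070 (SD, n = 6) in lactation. That of the lid went from -0.99 ± 0.040 to -0.55 ± 0.043, and that of the beta ring from 0.33 ± 0.048 to 0.55 ± 0.041. In each of these ratios all lactation pools were above all late pregnancy pools. The differences were 0.40 for the ATPases, 0.43 for the lid, 0.22 for the beta ring and 0.22 for the other base subunits, each with an adjusted p of 0.00049 in the exact permutation test. A ratio shows unequal change and not which side moved. The ratio of PSME4 rose by 0.23 (adjusted p of 0.004, exact permutation test) with overlapping pools. That of the core chaperones PSMG1 and PSMG3 rose by 0.17 (adjusted p of 0.032, exact permutation test), with overlap, and was not past the threshold without 1 of 6 libraries in turn.

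**Figure D4:**
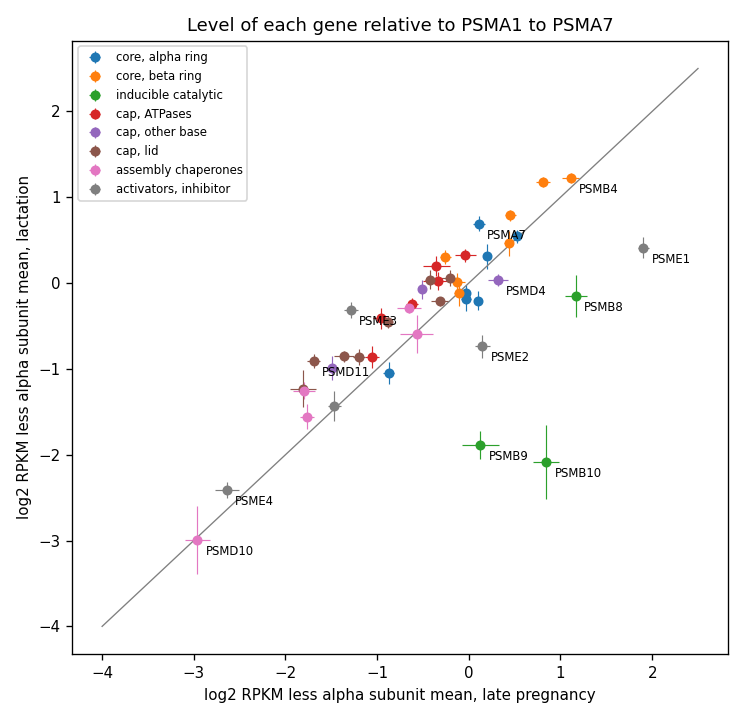
The mean log2 RPKM of each gene less the mean of PSMA1 to PSMA7 in the same library is drawn for lactation against late pregnancy, with SD bars, and the line marks equal values. PSMB10, PSMB8, PSMB9, PSME1 and PSME2 lie far below the line, and PSME3 and most cap genes lie above it.

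On this scale PSME1 was the most abundant member in late pregnancy, at 1.90 ± 0.059 above the alpha mean, and PSMB4 in lactation, at 1.22 ± 0.056. PSMB10 dropped from 0.84 ± 0.140 to -2.08 ± 0.430. Among the standard core subunits RPKM in late pregnancy ran from 39.3 for PSMA4 to 156 for PSMB4, with a median of 77.6, and among the cap subunits from 20.6 for PSMD12 to 89.8 for PSMD4, with a median of 46.9. PSME4 and PSMD10 were the lowest of the members tested.

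Reads on introns, which come mostly from RNA that has not been spliced, gave another readout of the same genes. Of the 38 members that could be tested, 9 were higher in lactation (29.0% of all genes were), 9 lower (29.0% of all genes were) and 20 did not pass, or 47.4% called beside 58.0% of the 10344 genes tested. The same direction was called on exons and introns in 10 of the 37 members tested on both, or 27.0%, beside 44.5% of all genes tested on both. PSME1 and PSME2 were among them, with intron changes of -1.55 ± 0.275 (SE) and -1.74 ± 0.247 (SE), as were PSMA4 (-0.98), PSMA5 (-0.64) and PSMD11 (0.82). The values of PSME1 and PSME2 rest on only 1 to 7 and 2 to 5 intron reads per lactation library, and EMC9 overlaps PSME1 in the annotation. PSMA1, PSMB5 and PSMB7 were called in opposite directions on exons and introns. PSMB4, whose exon reads did not pass, fell by 1.16 on the log2 scale on introns, on 3 to 13 reads per lactation library. PSMB10 and PSME3 were not among the members tested on introns. Of the reads on genes, introns took 13.8% to 15.3% per library in late pregnancy, against 5.74% to 12.9% in lactation. The 12.9% was that of the HML_P1 pool alone, and every other lactation pool lay far below it. With that pool left out, 18 members were called higher and 12 lower on exon reads.

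**Figure D5:**
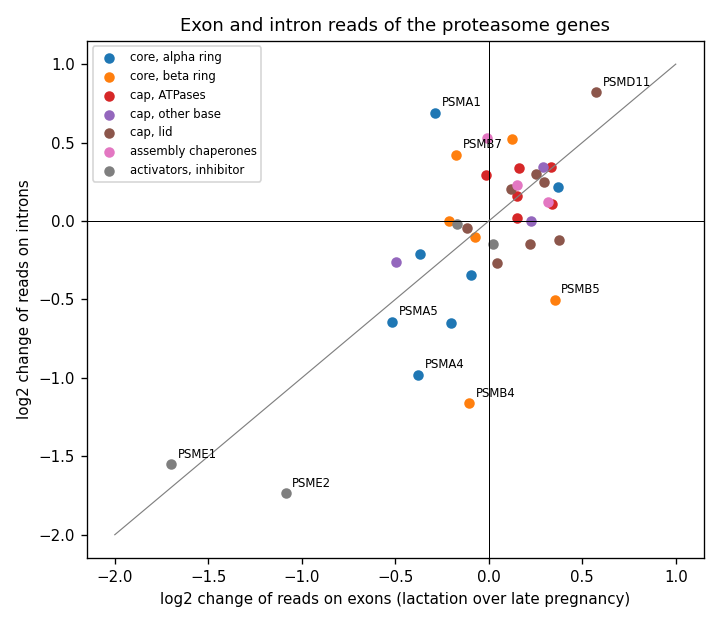
The log2 change of reads on introns is drawn against that of reads on exons (lactation over late pregnancy, TMM scaling for each) for members tested on both, and the line marks equal changes. PSME1 and PSME2 are low on both axes and PSMD11 is high on both, while PSMA1, PSMB5 and PSMB7 have opposite signs. With library size alone no member was called higher on introns.

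No member was called for the feed of the dams. By the column names every LM pool was sequenced in lane 8, and most HM pools in lane 7. The tests of feed held no term for lane, so feed group and lane cannot be fully told apart in them. Over the 9 late pregnancy libraries, edgeR's test of the 3 feed groups called 0 of the 42 members tested and 0.0% of 13747 genes, with 1 member, PSME2 (adjusted p of 1.0), at an unadjusted p under 0.05, where 4.15% of all genes were. PSME2 had 74.5 ± 3.79 CPM in HM, 86.3 ± 6.88 in MM and 73.8 ± 3.60 in LM pools. DESeq2 called 0 members and 20 genes in all. The test of whether the change between states differed by feed group called 0 members and 0.0% of genes in edgeR, with 3 members (PSMC4, PSMD10 and PSMG3) at an unadjusted p under 0.05, where 6.56% of all genes were, and DESeq2 called 0 members and 21 genes in all. PSMC4 was lowest, at an adjusted p of 0.74 by edgeR, with log2 changes of 0.37 in HM, 0.12 in MM and 0.54 in LM pools, and PSMG3 had -0.60, -0.03 and -0.09. Fitted alone, the feed groups gave PSMB10 changes of -3.10 in HM, -2.82 in MM and -3.45 in LM pools, PSME1 changes of -1.76, -1.63 and -1.70, and PSME3 changes of 0.85, 0.62 and 0.80, so these were found in every group.

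Of the genes that control the expression of the proteasome, NFE2L1, the transcription factor that raises proteasome genes when proteolysis is short, went from 69.4 ± 5.04 to 156 ± 6.06 CPM. This was a log2 change of 1.16 ± 0.052 (SE) with an adjusted p of 1.4e-13 by edgeR, and no pools overlapped. Its paralogs fell, NFE2L2 with -0.22 and NFE2L3 with -2.53. Over the list of 13 tested genes 4 rose, 4 fell and 5 did not pass, with a median of 0.01. NFE2L1 fell with library size alone, where its change was -0.74 against a median of -1.94 for all genes.

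Proteins that bind the proteasome but have no PSM symbol also moved in both directions, with 4 of 12 higher, 3 lower and 5 that did not pass (median of 0.04). USP14, a deubiquitinase of the cap, rose from 10.2 ± 1.10 to 15.4 ± 0.793 CPM, a log2 change of 0.60 (adjusted p of 1.8e-06 by edgeR). ZFAND5, a proteasome activator, fell with -0.84, with 31.3 ± 8.04 and 17.5 ± 1.66 CPM. Upstream, the E2 enzymes that carry ubiquitin had 16 of 26 higher and 5 lower with a median of 0.27, led by UBE2Q2 (1.34) and, downward, by UBE2C (-3.54), an E2 of the mitotic cyclosome. UBA1, the activating enzyme, rose by 0.47, while RPS27A, a fusion of ubiquitin and a ribosomal protein, fell with -0.83, and UBB was not analysed here. The shuttles and VCP cofactors, which deliver substrate, had 8 of 15 higher and 1 lower with a median of 0.13, led by UBQLN1 (0.58) and UBXN1 (-0.76), and their median was -0.01 with upper quartile scaling and -0.02 with limma.

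Other large complexes were measured beside the proteasome. The COP9 signalosome, which is related in structure to the lid, had 5 of 9 genes higher and 2 lower with a median of 0.14, from COPS7A (0.86) to COPS4 (-0.28), and its median was -0.01 with upper quartile scaling and -0.06 with limma. Of the CCT chaperonin, which folds actin and tubulin, 2 of 8 rose and 4 fell with a median of -0.12, from CCT6A (0.38) to CCT3 (-0.65). Of translation initiation factor 3, likewise related to the lid, 2 of 11 rose and 8 fell with a median of -0.62, from EIF3J (0.34) to EIF3E (-1.33). The difference between these complexes and the proteasome was not tested.

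Markers of the cells of the gland moved as well. Of the luminal epithelial markers 4 of 6 rose and none fell (median of 0.37, ELF5 at 0.81), and of the myoepithelial markers 2 of 5 rose and 2 fell (KRT14 at 0.61 and KRT5 at -0.90). Of the fibroblast markers 3 of 4 fell (median of -0.51, COL1A1 at -1.39), all 4 endothelial markers tested fell (median of -0.63, EMCN at -0.96), and none of the 3 adipocyte markers tested passed. With library size alone all of these medians were negative. Their part in the changes of the proteasome genes was not tested.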

How the data were processed

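RNA-seq libraries were read from 1 deposited table. The authors mapped paired reads to the sheep genome in CLC Genomics Workbench (Oar version 3.1 in the submitters' processing notes, another version in the study's methods) and counted reads on exons and on whole genes per feature. Deposited counts are unnormalized. The deposited RPKM relate these counts to exon length and to the total of reads on genes, and were recomputed to within 1.9e-06 of their size. The authors also deposited quantile-normalized RPKM, and the fold change and p-value of their own test, which were not used.

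Exon reads (whole-gene reads for 5583 features without an annotated transcript) were tested with edgeR 4.0.16 in R 4.3.3: filterByExpr by state, TMM, quasi-likelihood F-test without covariates, Benjamini-Hochberg over all genes tested, called at an adjusted p under 0.05. CPM use TMM library sizes. Intron reads are whole-gene less exon reads. Ratios within a library were tested by exact permutation of the libraries, two-sided. Scripts were tested on simulated data. Alternatives used limma 3.58.1 on log2(value + 1) and DESeq2 1.42.0, other scalings, filters and libraries. Python 3.11.15, numpy 2.4.6, pandas 2.3.3, scipy 1.17.1 and matplotlib 3.10.9 did the rest.

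Every member is named. Of each other list, the called gene with the largest change in each direction is named, and PSMB8, PSMB9, NFE2L1, NFE2L2, POMP, ADRM1, USP14 and UBB whatever their values. PTPRC, B2M, TAP1, TAP2 and TAPBP are named outside this rule, as are features that overlap a member. Some genes are not reported here. Members and lists were chosen with earlier results of these data known. The pools are separate samples in the labels, p-values measure the spread between pools only, and animals shared between the states were not modelled. All 44 symbols were matched in RefSeq's gene table. Reads carry no molecular identifiers.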

Additional observations from a re-analysis of the deposited data

Results flagged for a closer look

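The 110 groups of libraries examined were 84 of a member in 1 state, 4 of PSMB8 or PSMB9 and 22 of a ratio. In 6 of them, all of members, a single pool lay apart from the others by Dixon's criterion, and chance gives about 1 in 20. In lactation PSMA4 was low in the HML_P2 pool (28.1 CPM, the nearest pool at 34.3), and PSMD1 was low in the LML_P2 pool (56.2 CPM, the nearest at 68.2). PSMB2 was high in the HML_P1 pool (43.5 CPM, the nearest at 36.6). The LML_P1 pool was high for PSMC1 (74.3 CPM, the nearest at 63.7) and for PSMD8 (75.5 CPM, the nearest at 62.6). In late pregnancy PSMC6 was high in the LMLP_P2 pool (50.0 CPM, the nearest at 47.4).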

How the results depend on the processing

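The changes of PSMB10, PSME1, PSME2 and PSME3 kept their direction and call under 31 alternatives each, other than library size alone, with log2 changes from -3.45 to -2.82, -1.97 to -1.63, -1.26 to -0.99 and 0.52 to 0.85. In the libraries of lane 7 alone these were -2.84, -1.71, -1.20 and 0.72, and in those of lane 8 alone -3.28, -1.69, -0.99 and 0.77. The lane fits, and a fit on reads across exon junctions, were chosen after the data were seen. The small changes of the standard subunits depend on the scaling, and on fewer libraries fewer are called.

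Members called higher numbered 0 with library size alone, 9 with upper quartile scaling, 5 with limma, 10, 8 and 9 in the HM, MM and LM libraries alone and 9 in the lane 7 libraries. Members called lower numbered 42 with library size alone, 23 with limma, and 8 and 7 in the HM and LM libraries alone. HM libraries alone called 5933 genes in all, against 9122. On introns, members called higher numbered 0 with library size alone and 5 where 10 reads were required of each library, and members called lower 27 with library size alone.

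Library size alone turned the direction of PSMA7 (-1.54), PSMB1 (-1.78), PSMB5 (-1.55), PSMB6 (-1.75), PSMC1 (-1.75), PSMC2 (-1.75), PSMC3 (-1.76), PSMC4 (-1.57), PSMC5 (-1.56), PSMD1 (-1.61), PSMD11 (-1.34), PSMD12 (-1.53), PSMD14 (-1.79), PSMD2 (-1.68), PSMD3 (-1.69), PSMD5 (-1.59), PSMD6 (-1.61), PSMD7 (-1.86), PSMD8 (-1.65), PSME3 (-1.16), PSME4 (-1.88) and PSMG1 (-1.75), and of ADRM1 (-1.81), CCT6A (-1.53), COPS7A (-1.05), EIF3J (-1.56), ELF5 (-1.10), ERAP1 (-1.52), KRT14 (-1.29), NFE2L1 (-0.74), POMP (-1.90), UBA1 (-1.43), UBE2Q2 (-0.57), UBQLN1 (-1.33) and USP14 (-1.31), where the median of all genes was -1.94. Upper quartile scaling turned PSMB1 (-0.026), PSMC3 (-0.0010), PSMD14 (-0.029), PSMD7 (-0.10), PSME4 (-0.13), ADRM1 (-0.058) and POMP (-0.15). With limma PSMB1 (-0.14), PSMB6 (-0.11), PSMC1 (-0.11), PSMC2 (-0.073), PSMC3 (-0.12), PSMD14 (-0.062), PSMD2 (-0.032), PSMD7 (-0.21), PSMD8 (-0.0039), PSME4 (-0.046), PSMG1 (-0.082), ADRM1 (-0.12) and POMP (-0.27) turned. Against TMM, the median of all genes moved by -1.91 with library size alone and by -0.15 with upper quartile scaling. With limma it moved by only -0.016, while the median of the members went from 0.03 to -0.13. The cause was not tested.

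Genes that were not called in the main comparison, where they ran from -0.26 for PSMD10 to 0.15 for PSMC1, also changed sign without being called. HM libraries alone gave 0.040 for PSMB2, -0.039 for PSMC1, 0.037 for PSMD10, 0.14 for PSMD9 and -6.8e-05 for POMP, LM libraries alone 0.058 for PSMC6 and -0.050 for POMP, and MM libraries alone -0.014 for PSMD7. Lane 7 alone gave -0.061 for PSMD7 and 0.057 for PSMD9, and lane 8 alone 0.058 for PSMC6, -0.0042 for PSME4 and -0.0079 for POMP. No filter gave -0.0057 for PSMD7, -0.027 for PSME4 and -0.050 for POMP, and the stricter filter -0.039, -0.061 and -0.083. The replicate block gave -0.019 for PSMD7 and -0.0042 for POMP, the dam covariate -0.00074 and the lane covariate -0.00084 for POMP, and junction reads -0.024 for ADRM1. Without 1 library PSMC6 ran from -0.037 to 0.030, PSMD9 from -0.050 to 0.021, PSME4 from -0.0018 to 0.054 and POMP from -0.024 to 0.020.

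Of the ratios to the alpha ring, that of the core chaperones was 0.15 and not called with the replicate block, -0.084 in the HM and 0.39 in the MM libraries alone, and 0.15 to 0.21 without 1 library, losing its call without MMLP_P1, MMLP_P2, MML_P1, MML_P2, LML_P1 or LML_P2. The PA28 ratio was -1.28 in HM and -1.09 in MM libraries alone, and that of the ATPases 0.30 in HM and 0.49 in LM. For the dam feed, DESeq2 called 20 and 21 genes in all, none a member. Without 1 library edgeR called 0 to 1 genes in late pregnancy and 0 to 10 for the interaction.

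Deviations of the same numbered pools correlated between -0.03 and 0.09 over 6 pairs, with 2 libraries closest to their own partner. Pools may share only some of their ewes, so these correlations cannot show whether the pool numbers pair the libraries. A fit with dam group and pool number as a replicate block called 14 members higher, 13 lower and 8464 genes in all. Without 1 library in turn, 16 to 20 members were higher and 11 to 15 lower. PSMB1, PSMC3, PSMD13, PSMF1, PSMG1 and PSMG3 each lost their call without some library.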
